A study of Homo sapiens with 4 samples.

Results

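Gene expression in MOLM-13 cells with a c-Myc hairpin was compared directly with that in MOLM-13 cells with a Bcl-2 hairpin. MOLM-13 was derived from acute myeloid leukaemia and has a rearranged KMT2A gene. The series holds 4 RNA-seq libraries, 1 per group: a negative control hairpin (shControl), a hairpin against BCL2 (sh-Bcl2), a hairpin against MYC (sh-c-Myc), and both targeting hairpins together (sh-c-Myc_sh-Bcl2, here the double knockdown). All 4 groups were infected with lentivirus, selected for the vector with puromycin (0.5 µg/ml) or G418 (600 µg/ml), and induced with doxycycline. The labels do not say which drug went with which hairpin, so drug and hairpin cannot be told apart, nor whether each line was 1 clone or a pool. A Western blot is described after 72 h of doxycycline, and no source used here says whether RNA was taken at the same time. The genes compared are the 13376 of 24940 listed genes (53.6%) that reached 1 CPM (a read count scaled to library size) in sh-Bcl2 or in sh-c-Myc. Both compared cell populations carry a targeting hairpin, so the direct contrast sets neither against a control library, although the scaling factors came from all 4 libraries. shControl and the double knockdown are given beside it.

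MYC is a transcription factor that pairs with MAX on the DNA letters CACGTG, the E-box, and is known for driving ribosome production, nucleotide synthesis, DNA replication and mitochondrial protein synthesis in dividing blood progenitors. In myeloid cells its level normally falls as they mature. BCL2 sits on the outer mitochondrial membrane and holds back the pore-forming proteins BAX and BAK1, and many acute myeloid leukaemia cells depend on it or on its relative MCL1 for survival.

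Levels below are CPM after scaling with TMM factors, which correct for the makeup of each library. A fold is sh-c-Myc against sh-Bcl2 unless said otherwise, and brackets hold its exact 95% interval. The intervals cover counting error only. With 1 library per group there are no replicates to test, and the spread between cultures was not measured on its own. A fit of all 4 libraries that assumes the hairpins act additively served as an alternative and called 2202 genes (16.5%) at an adjusted p under 0.05 by edgeR's quasi-likelihood test. A gene is called higher or lower when the levels differ at least 2-fold and the interval excludes a ratio of 1. That rule describes these libraries, and no p-value is attached to it. Where 4 levels stand without names, they follow the order shControl, sh-Bcl2, sh-c-Myc, double knockdown.

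The libraries held between 14421558 and 15691129 counts. TMM factors were 0.965 in sh-Bcl2 and 1.08 in sh-c-Myc. The summed level of the 11 measured monocyte and macrophage markers of 19 listed was 489.6 CPM in sh-Bcl2 against 1096 in sh-c-Myc, with 330.0 in shControl and 1134 in the double knockdown. For the 9 measured granule protein genes of 18 listed the sums were 2090.0 in sh-Bcl2 against 5583 in sh-c-Myc, with 2632 in shControl and 5591 in the double knockdown. Markers of other lineages were few or low: 2 of 9 B cell markers were measured (sums of 2.06 to 5.13), 3 of 9 megakaryocyte markers (6.14 to 10.7), 2 of 8 mast cell markers (2.51 to 5.31) and 4 of 10 dendritic cell markers (70.5 to 94.4). Of 13 erythroid markers 2 were measured, TFRC and EPOR (sums of 357 to 639), and of 13 stem and progenitor markers 5 (124 to 167). The 5 measured of 14 T and NK cell markers summed to 461 to 525 CPM, of which NCAM1, NKG7 and CD4 held most. The defining genes GATA1, HBA1, CD3E and MS4A1 were not among the measured genes.

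The targeted transcripts check the labels. BCL2 (ENSG00000171791, chromosome 18, 63123346 to 63320128, GRCh38) stood at 38.7 CPM in sh-Bcl2 against 112 in sh-c-Myc, with 119.7 in shControl and 44.5 in the double knockdown. It was low in both libraries with the Bcl-2 hairpin and near the shControl level in sh-c-Myc, so that it was 2.88-fold higher [2.62 to 3.17] in the direct comparison. MYC (ENSG00000136997, chromosome 8, 127735434 to 127741434) stood at 364 CPM in sh-Bcl2 against 278 in sh-c-Myc, with 434 in shControl and 302 in the double knockdown. Its RNA was lower in sh-c-Myc than in sh-Bcl2 by a log2 ratio of -0.39 [-0.45 to -0.33], and did not reach 2-fold. The MYC ratio shrank to -0.22 with scaling by total counts. sh-Bcl2 itself lay below shControl for MYC, which narrows the direct contrast. Protein was not analysed here.

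**Figure D1:**
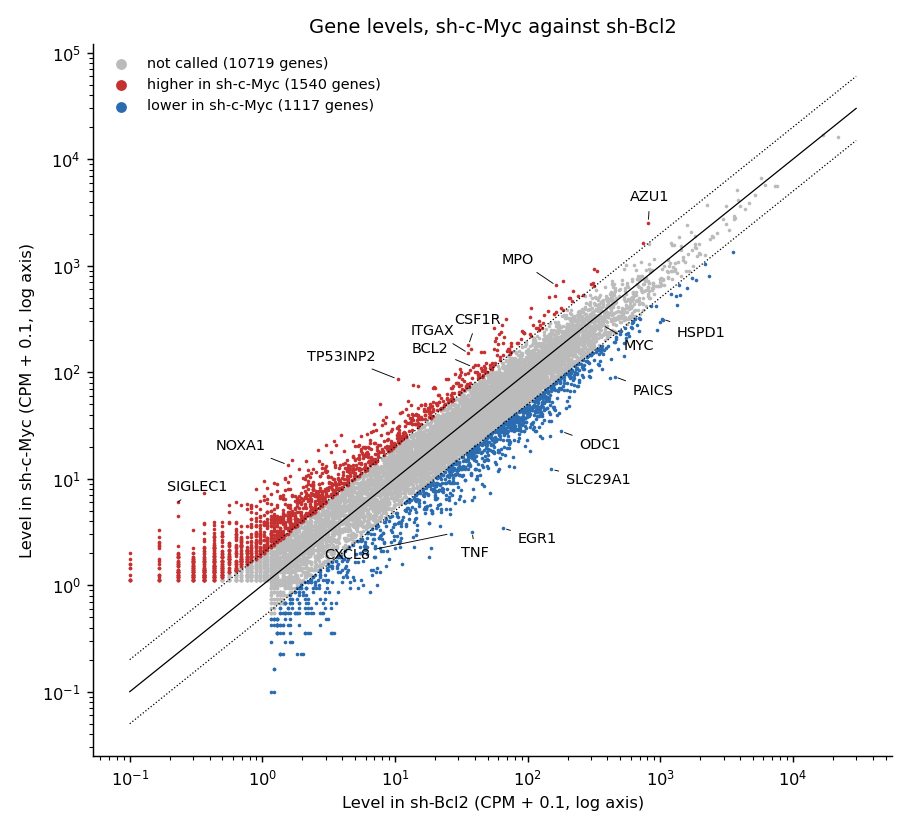
Level of each of the 13376 genes in sh-Bcl2 (x axis) against sh-c-Myc (y axis), CPM plus 0.1 on log axes, with 1 point per gene. The solid line marks equal levels and the dotted lines 2-fold. The 1540 genes called higher in sh-c-Myc reach down to low levels and the 1117 called lower spread over mid and high levels, and MYC lies inside the 2-fold lines.

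Genes called higher in sh-c-Myc than in sh-Bcl2 numbered 1540 (11.5% of genes compared), and genes called lower numbered 1117 (8.35%). The higher calls were mostly genes of low level, with a median of 2.78 CPM over both libraries against 27.2 for the lower calls and 26.1 for all genes. Among the 10828 genes that averaged at least 50 counts the order turned, with 708 higher (6.54%) and 909 lower (8.39%). Of the higher calls, 657 met the filter through sh-c-Myc alone, and of the lower calls 156 met it through sh-Bcl2 alone, and among such genes the filter itself favours a difference. The gene just inside the filter had 1.03 CPM in its higher library and the gene just outside had 0.991. Higher calls made up 58.0% of all calls, and this share depends on the scaling: it was 72.0% with total counts (2004 higher, 780 lower) and 70.0% with upper quartile factors (1924 and 823). With TMM factors from sh-Bcl2 and sh-c-Myc alone it was 55.3% (1484 and 1200). Scaling by total counts adds 0.16 to every log2 ratio, and the ratios below are relative to the TMM centre.

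Genes that build ribosomes were lower in sh-c-Myc almost without exception. Of 50 measured nucleolar and ribosome biogenesis factors, 42 were called lower and 0 higher, all 50 had a ratio below 0, and the median log2 ratio was -1.46 against -0.01 over all genes. The nucleolar phosphoprotein gene NOLC1 stood at 532 CPM in sh-Bcl2 against 142 in sh-c-Myc (3.74-fold lower [3.57 to 3.92]), with 542 in shControl and 227 in the double knockdown. NPM1, which encodes the abundant nucleolar chaperone nucleophosmin, stood at 1393 CPM in sh-Bcl2 against 664 in sh-c-Myc (2.099-fold lower [2.05 to 2.15]), with 1544 in shControl and 936 in the double knockdown. In both genes sh-Bcl2 was close to shControl, sh-c-Myc was the lowest of the 4 libraries, and the double knockdown lay between. MRTO4, needed for assembly of the large ribosomal subunit, stood at 115, 124, 25.3 and 55.4 CPM (4.88-fold lower [4.38 to 5.46]). MYBBP1A, a nucleolar regulator of ribosomal RNA synthesis, stood at 239, 206, 48.4 and 72.2 CPM (4.26-fold lower [3.94 to 4.62]). The nucleolar protein gene LYAR repeated that order of libraries, at 63.2, 58.1, 13.5 and 23.99 CPM (4.29-fold lower [3.69 to 5.02]). UTP15, a part of the small-subunit processome, lay above shControl in sh-Bcl2 and below it in sh-c-Myc (33.0, 49.1, 17.6 and 25.8 CPM).

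The promoters of 2 of these growth genes are shown because they hold an E-box before the start of transcription and belong to lists that were lower in sh-c-Myc: UTP20, a component of the small-subunit processome, and CCNB1, the cyclin of entry into mitosis. They were chosen after their values were seen, as the called member with the largest conservative fold in its list whose E-box lies in a stretch without exons. The stretch had to hold at least 60 bases, and the gene 10 CPM in sh-Bcl2 and a place off the chromosome of MYC. The same search in the lists of nucleotide synthesis, DNA replication and mitochondrial import found no such promoter, so the sequences shown are not typical of all lower lists. The sequences are from RefSeq (GRCh38.p14), 5′ to 3′ on the plus strand, at chr12:101279855-101280104 for UTP20 and chr5:69166900-69167009 for CCNB1, and capitals mark CACGTG.
UTP20: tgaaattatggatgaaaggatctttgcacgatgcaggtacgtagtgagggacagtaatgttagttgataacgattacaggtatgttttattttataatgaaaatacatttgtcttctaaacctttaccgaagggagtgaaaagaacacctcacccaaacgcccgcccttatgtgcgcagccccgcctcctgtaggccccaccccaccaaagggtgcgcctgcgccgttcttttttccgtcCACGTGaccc
CCNB1: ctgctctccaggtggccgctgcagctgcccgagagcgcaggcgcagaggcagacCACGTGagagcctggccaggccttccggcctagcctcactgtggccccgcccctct
The motif begins 10 bases before the RefSeq start of UTP20 and 196 bases before that of CCNB1. UTP20 stood at 158 CPM in sh-Bcl2 against 45.02 in sh-c-Myc (3.52-fold lower [3.24 to 3.84]), with 122 in shControl and 82.9 in the double knockdown. CCNB1 stood at 116 CPM in sh-Bcl2 against 36.6 in sh-c-Myc (3.15-fold lower [2.87 to 3.48]), with 112 in shControl and 90.4 in the double knockdown, and for this gene the double knockdown lay nearer to sh-Bcl2.

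The machinery around the ribosome differed by a smaller amount. Of 30 subunits and factors of RNA polymerases I and III, which transcribe ribosomal and transfer RNA, 8 were lower and 0 higher (median -0.74). Among them POLR3G, the polymerase III subunit typical of undifferentiated cells, stood at 39.2 CPM in sh-Bcl2 against 6.61 in sh-c-Myc (5.92-fold lower [4.81 to 7.396]), with 42.7 in shControl and 11.6 in the double knockdown. Cytosolic ribosomal protein genes had a median of -0.49 over 79 genes, 76 of them below 0, but only 5 passed 2-fold. Their share of all counts was 7.07% in sh-Bcl2 against 5.72% in sh-c-Myc, with 8.92% in shControl and 6.10% in the double knockdown. Translation factors had a median of -0.45 (8 of 38 lower, 0 higher), and cytosolic aminoacyl-tRNA synthetases of -0.57 (6 of 20 lower, 0 higher).

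Enzymes that supply nucleotides were lower in sh-c-Myc, and so were some of those that make polyamines. Of 26 genes of purine and pyrimidine synthesis 16 were called lower, 0 higher, and all 26 had a ratio below 0 (median -1.06). PAICS, which carries out adjoining steps of purine synthesis, stood at 452 CPM in sh-Bcl2 against 90.6 in sh-c-Myc (4.99-fold lower [4.71 to 5.29]), with 443 in shControl and 184 in the double knockdown. PPAT, the gene of the committing enzyme of the same pathway, stood at 79.0, 71.8, 20.9 and 38.1 CPM (3.43-fold lower [3.03 to 3.899]), and PFAS at 157, 146, 34.9 and 59.4 CPM (4.17-fold lower [3.799 to 4.59]). RRM2, the ribonucleotide reductase subunit that makes DNA precursors, stood at 102, 148, 25.1 and 73.95 CPM (5.89-fold lower [5.29 to 6.58]), and 20.2% of its exonic length overlaps another gene. RRM2 was above shControl in sh-Bcl2 and below it in sh-c-Myc. In the polyamine list 4 of 10 genes were lower and 0 higher, and 3 lay above 0. ODC1, the rate-limiting enzyme of polyamine synthesis, stood at 179 CPM in sh-Bcl2 against 27.8 in sh-c-Myc (6.44-fold lower [5.82 to 7.15]), with 149.6 in shControl and 85.7 in the double knockdown, and spermidine synthase (SRM) at 153, 195, 45.9 and 75.3 CPM (4.26-fold lower [3.93 to 4.63]). The nucleoside transporter gene SLC29A1 was among the largest differences of all, at 151 CPM in sh-Bcl2 against 12.1 in sh-c-Myc (12.4-fold lower [10.7 to 14.5]), with 175 in shControl and 33.1 in the double knockdown.

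Cell division genes were lower in the same direction. Of 43 genes of DNA replication and the G1/S transition, 30 were lower and 0 higher, with all 43 below 0 (median -1.33). The replicative helicase gene MCM4 stood at 952 CPM in sh-Bcl2 against 249 in sh-c-Myc (3.82-fold lower [3.69 to 3.96]), with 882 in shControl and 516 in the double knockdown. UHRF1, which maintains DNA methylation after replication, stood at 463, 417, 88.4 and 180.3 CPM (4.71-fold lower [4.45 to 5.00]), and the G1/S cyclin gene CCNE1 at 21.5, 24.1, 5.07 and 11.8 CPM (4.74-fold lower [3.72 to 6.15]). Of 44 genes of mitosis and G2/M, 29 were lower and 1 was higher (median -1.16). The single higher gene was PRC1, at low levels of 0.7098, 0.396, 1.15 and 1.02 CPM and with 58.4% of its exonic length shared with another gene. CDC20, the activator of the anaphase-promoting complex, stood at 138, 122, 30.7 and 79.0 CPM (3.98-fold lower [3.596 to 4.41]). TRIP13, a spindle checkpoint factor, was at 84.4, 104, 18.3 and 41.1 CPM (5.69-fold lower [5.02 to 6.49]). The proliferation marker gene MKI67 was abundant and just past 2-fold, at 769, 858, 418 and 599.7 CPM (2.05-fold lower [1.99 to 2.12]). In all of these, sh-Bcl2 lay nearer to shControl than to sh-c-Myc. By contrast, G1 cyclins and CDK inhibitors had a median of -0.07 (2 of 13 lower, 0 higher), a value whose sign turns with total-count scaling (0.10).

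**Figure D2:**
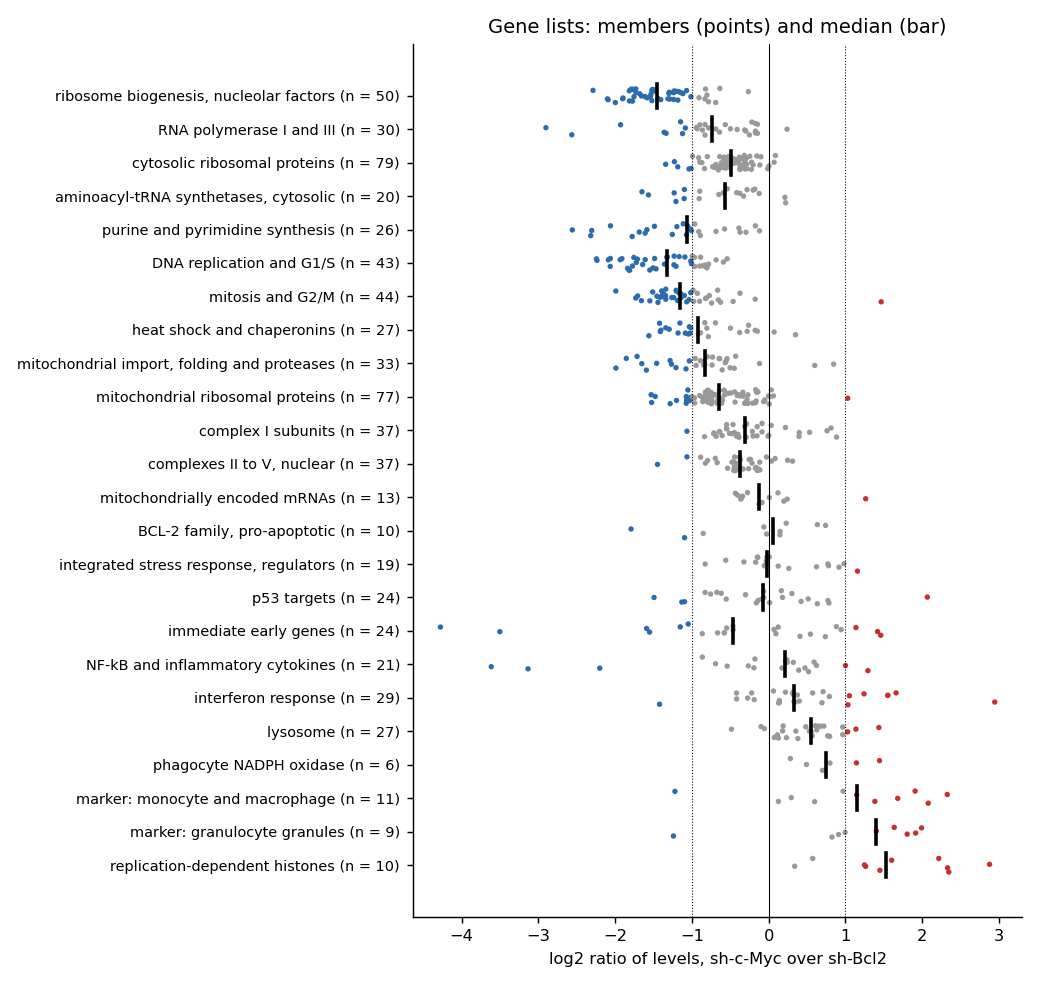
log2 ratio of sh-c-Myc over sh-Bcl2 (x axis) for the members of 24 gene lists (rows), with 1 point per measured gene and a bar at the list median. Red points were called higher and blue points lower, and dotted lines mark 2-fold. Ribosome biogenesis (median -1.46) and DNA replication (-1.33) lie on the left, granule genes (1.40) and histones (1.53) on the right, and stress response and p53 lists around 0.

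The study set out to look at mitochondria, and nuclear genes for mitochondrial proteins differed by class. Protein import, folding and proteolysis stood lowest, with 11 of 33 genes lower, 0 higher and a median of -0.83. HSPD1, the chaperonin of the mitochondrial matrix, stood at 1039 CPM in sh-Bcl2 against 317 in sh-c-Myc (3.28-fold lower [3.18 to 3.39]), with 1156 in shControl and 516 in the double knockdown. TOMM40, the channel of the outer membrane translocase, stood at 179, 140.3, 46.5 and 67.4 CPM (3.02-fold lower [2.77 to 3.29]), and TRAP1, a mitochondrial HSP90 relative with 29.3% of its exonic length shared with another gene, at 129, 111, 30.7 and 46.1 CPM (3.62-fold lower [3.27 to 4.02]). Mitochondrial ribosomal proteins had a median of -0.65 (11 of 77 lower, 1 higher), and genes of mitochondrial DNA maintenance and transcription of -0.63 (5 of 20 lower, 0 higher). TWNK, the helicase that unwinds mitochondrial DNA, stood at 116, 110.5, 29.2 and 47.3 CPM (3.78-fold lower [3.41 to 4.21]).

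The respiratory chain itself differed less. Complex I subunits had a median of -0.31 with 1 of 37 called lower, and nuclear subunits of complexes II to V of -0.38 with 2 of 37, shares below the 8.35% over all genes. ATP5MC1, a subunit of the ATP synthase ring, stood at 92.1, 92.6, 33.9 and 50.5 CPM (2.73-fold lower [2.47 to 3.02]). None of the 22 genes of the tricarboxylic acid cycle (median -0.34), of the 20 genes of fission, fusion and cristae (-0.37) or of the 15 genes of fatty acid oxidation (-0.14) was called in either direction. The 13 mRNAs encoded by the mitochondrial genome had a median of -0.13, which became 0.04 with total counts. MT-CO1, a subunit of cytochrome oxidase, stood at 16775 CPM in sh-Bcl2 against 16868 in sh-c-Myc, with 13697 in shControl and 16432 in the double knockdown, and its log2 ratio was 0.01. The other 3 libraries lay above shControl for it and close to each other.

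In glycolysis, 6 of 25 genes were lower and 2 higher (median -0.40), against 8.35% and 11.5% over all genes. Lactate dehydrogenase A (LDHA) stood at 993 CPM in sh-Bcl2 against 297 in sh-c-Myc (3.34-fold lower [3.23 to 3.45]), with 1004 in shControl and 491 in the double knockdown, and the lactate exporter SLC16A1 at 137, 128, 24.1 and 42.03 CPM (5.298-fold lower [4.75 to 5.94]). The hexokinases went in opposite directions: HK2 stood at 124, 112, 48.6 and 64.2 CPM (2.302-fold lower [2.11 to 2.51]), while HK3, the hexokinase typical of myeloid cells, stood at 3.48, 3.83, 25.6 and 17.3 CPM (6.63-fold higher [5.06 to 8.96]). Cytosolic heat shock and chaperonin genes had a median of -0.92, with 13 of 27 lower and 0 higher. HSP90AB1 stood at 3836, 3562, 1338 and 1998 CPM (2.66-fold lower [2.62 to 2.71]), and the constitutive HSP70 gene HSPA8 at 2334, 2343, 794 and 1650 CPM (2.95-fold lower [2.89 to 3.01]). Of 24 antioxidant genes 7 were lower and 0 higher (median -0.62). The glutathione transferase gene GSTP1 stood at 38.9, 25.8, 4.55 and 8.25 CPM (5.62-fold lower [4.38 to 7.39]).

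Several genes of mature myeloid cells were higher in sh-c-Myc. Of the 11 measured monocyte and macrophage markers, 6 were called higher and 1 lower (median 1.15), the lower one being CD163 at 1.14, 1.39, 0.577 and 1.98 CPM. Another 7 stayed below 1 CPM in both compared libraries, CD68, FCN1 and VCAN among them. CSF1R (chromosome 5, 150053291 to 150113372), the receptor for macrophage colony-stimulating factor, stood at 35.7 CPM in sh-Bcl2 against 179 in sh-c-Myc (5.02-fold higher [4.58 to 5.51]), with 18.9 in shControl and 152 in the double knockdown. ITGAX, the integrin chain CD11c, stood at 28.96, 35.7, 151 and 62.1 CPM (4.22-fold higher [3.85 to 4.65]). ITGAM, the chain CD11b, stood at 78.2, 94.2, 235 and 193 CPM (2.49-fold higher [2.35 to 2.65]). Both integrin genes were highest in sh-c-Myc, and for ITGAX the double knockdown lay well below it. Of the calgranulin genes, S100A8 stood at 4.68, 12.3, 39.7 and 33.1 CPM (3.21-fold higher [2.73 to 3.81]). Its partner S100A9 stood at 7.45, 13.01, 48.9 and 47.2 CPM (3.75-fold higher [3.21 to 4.42]). For CSF1R, S100A8, S100A9 and the lysozyme gene LYZ (36.1, 91.8, 239.6 and 346 CPM, with 34.0% of its exonic length shared with another gene) sh-Bcl2 already lay above shControl, and sh-c-Myc lay higher still. CD14, the lipopolysaccharide co-receptor of monocytes, stayed between 0.781 and 1.22 CPM in the 4 libraries. In bulk RNA more cells of a mature type and more RNA per cell cannot be told apart.

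Granule protein genes formed the other large group. Of 9 measured, 5 were called higher and 1 lower (median 1.40), the lower one being EPX at 0.497, 1.255, 0.513 and 0.6397 CPM. Another 4, CAMP, MMP8, MMP9 and PRG2, stayed below 1 CPM in both compared libraries. Myeloperoxidase (MPO, chromosome 17, 58269856 to 58280935) stood at 164 CPM in sh-Bcl2 against 652 in sh-c-Myc (3.98-fold higher [3.81 to 4.16]), with 131 in shControl and 660.2 in the double knockdown. ELANE, the neutrophil elastase gene, stood at 350.2, 336, 887 and 1255 CPM (2.65-fold higher [2.56 to 2.73]). PRTN3, the gene of proteinase 3, stood at 72.6, 56.2, 196 and 224 CPM (3.49-fold higher [3.24 to 3.78]). In MPO, ELANE and PRTN3 the double knockdown was at or above sh-c-Myc. AZU1, the gene of azurocidin, lay below shControl in sh-Bcl2 and above it in sh-c-Myc, at 812 CPM in sh-Bcl2 against 2523 in sh-c-Myc (3.11-fold higher [3.04 to 3.17]), with 1387 in shControl and 2179 in the double knockdown.

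Other myeloid functions followed with fewer calls. NCF1, a subunit gene of the phagocyte oxidase that makes superoxide, stood at 29.1, 47.2, 104 and 78.2 CPM (2.21-fold higher [2.02 to 2.42]), and its reads are uncertain because near-identical pseudogenes exist. NOXA1, an activator of related oxidases, stood at 1.99, 1.45, 13.4 and 6.01 CPM (9.04-fold higher [5.93 to 15.04]). Fc receptor genes were all above 0 (8 of 8, 2 called, median 0.79), with FCGRT, the neonatal Fc receptor, at 52.7, 57.3, 208 and 166 CPM (3.63-fold higher [3.37 to 3.92]). The granulocyte colony-stimulating factor receptor gene CSF3R stood at 106 CPM in sh-Bcl2 against 398 in sh-c-Myc (3.74-fold higher [3.54 to 3.95]), with 121 in shControl and 254 in the double knockdown. SIGLEC1, a sialic acid receptor of macrophages, rested on 2 counts in sh-Bcl2: it stood at 0.132 CPM there and 5.97 in sh-c-Myc, a ratio of 36.3 with a counting interval of 12.2 to 378. Its list of C-type lectins and Siglecs went both ways, with 4 higher and 2 lower calls among 10 measured genes, against 11.5% and 8.35% over all genes. Log2 ratios in that list ran from -3.60 to 5.18 (median 0.52). Lysosomal genes had a median of 0.55, with 24 of 27 above 0 and 3 called higher, a share close to the 11.5% over all genes, among them GRN, the progranulin gene, at 263, 312, 685 and 594 CPM (2.199-fold higher [2.12 to 2.28]).

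The transcription factors of the myeloid lineage differed among themselves. Of 20 measured, 4 were higher and 1 lower (median 0.42), against 11.5% and 8.35% over all genes. KLF4 stood at 12.1, 14.3, 39.3 and 34.8 CPM (2.75-fold higher [2.36 to 3.23]), and CEBPD at 28.96, 34.9, 77.8 and 60.8 CPM (2.23-fold higher [2.01 to 2.48]). SPI1, which encodes PU.1, stood at 139 CPM in sh-Bcl2 against 252 in sh-c-Myc, with 173 in shControl and 197 in the double knockdown. At 1.82-fold it was not called, although its log2 ratio passed 1 (1.02) with total-count scaling. CEBPA (186, 154, 188 and 154 CPM, 43.4% of its exonic length shared with another gene) and IRF8 (749, 743, 677 and 818 CPM) were not called. Nor was any of 20 HOXA and KMT2A-fusion target genes called (median -0.04), among them FLT3 at 426, 513, 671 and 592 CPM and MYB at 470.3, 566, 659 and 717 CPM.

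**Figure D3:**
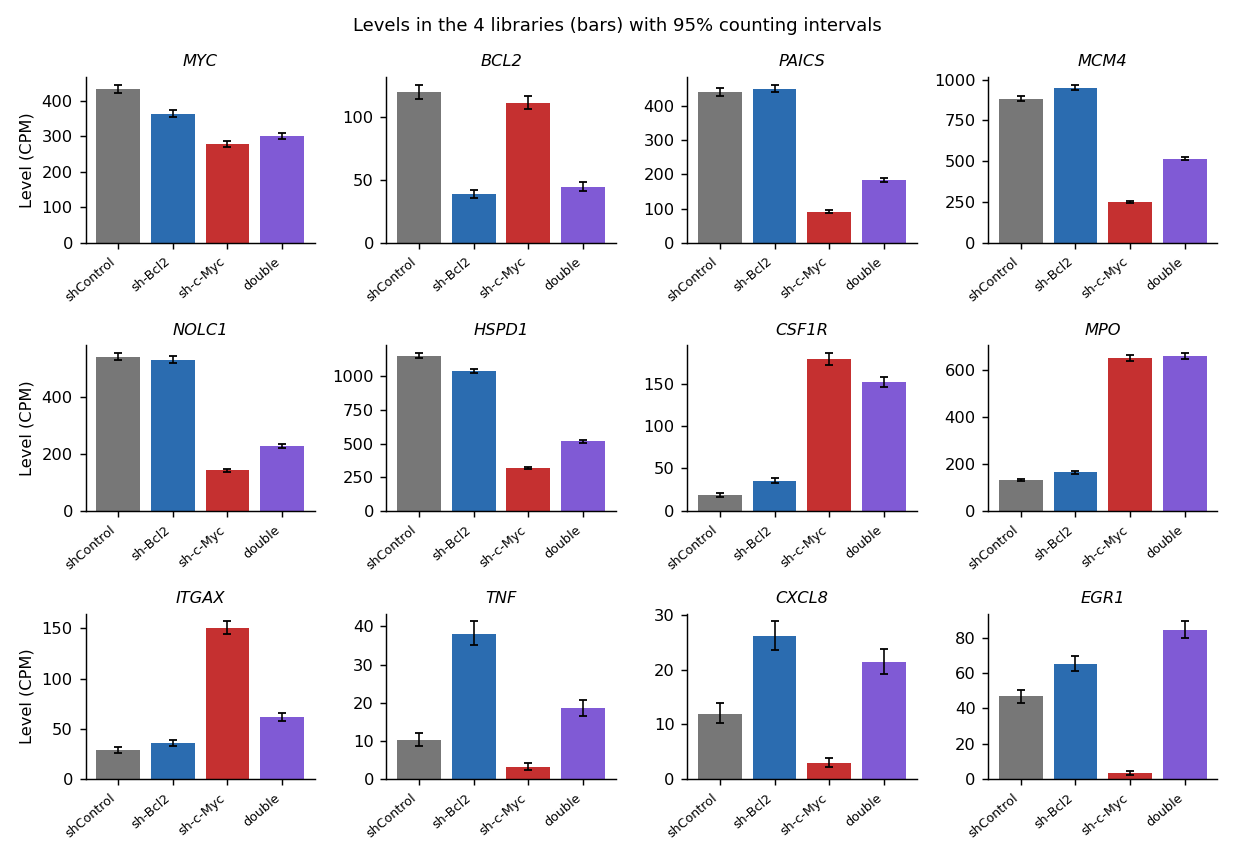
Level (CPM, y axis from 0) of 12 genes in the 4 libraries, with bars for the level and error bars for 95% counting intervals. BCL2 is low in both libraries with the Bcl-2 hairpin. PAICS, MCM4, NOLC1 and HSPD1 are lowest in sh-c-Myc, CSF1R and MPO are high in both libraries with the c-Myc hairpin, and TNF and CXCL8 are highest in sh-Bcl2. ITGAX is highest in sh-c-Myc, with the double knockdown well below it.

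Some genes of inflammatory factors were lower in sh-c-Myc. Tumour necrosis factor (TNF, chromosome 6, 31575567 to 31578336) stood at 38.05 CPM in sh-Bcl2 against 3.08 in sh-c-Myc (12.2-fold lower [9.199 to 16.96]), with 10.2 in shControl and 18.5 in the double knockdown. The neutrophil chemokine gene CXCL8 stood at 26.2 CPM in sh-Bcl2 against 2.95 in sh-c-Myc (8.78-fold lower [6.52 to 12.3]), with 11.9 in shControl and 21.4 in the double knockdown. Both lay above shControl in sh-Bcl2 and in the double knockdown, and below it in sh-c-Myc. Osteopontin (SPP1) stood at 1.35, 9.84, 2.12 and 10.04 CPM (4.597-fold lower [3.17 to 7.003]) and was high only in the libraries with the Bcl-2 hairpin among these 4. The list of 21 NF-kB and inflammatory genes, 12 of them above 0, held 2 higher and 3 lower calls, against 11.5% and 8.35% over all genes. The lower ones were these 3 genes, and RELB was among the higher ones, at 12.6, 6.94, 13.9 and 9.79 CPM (2.002-fold higher [1.58 to 2.56]). The median of the list was 0.22 and its mean -0.27, so the list as a whole had no single direction.

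EGR1 gave the largest difference among genes lower in sh-c-Myc at 10 CPM or more, ranked by the end of the interval nearest to 1 (the conservative fold). This immediate early transcription factor gene (chromosome 5, 138465490 to 138469315) stood at 65.2 CPM in sh-Bcl2 against 3.33 in sh-c-Myc (19.4-fold lower [14.8 to 26.4]), with 46.8 in shControl and 84.5 in the double knockdown, so sh-c-Myc alone stood apart and the double knockdown was the highest library. Over all genes 8.35% were called lower and 11.5% higher. Of 24 immediate early genes 6 were lower and 3 higher (median -0.46, or 0.07 over members with a mean of at least 50 counts). The higher ones were KLF4, FOSL2 at 201, 218, 584 and 459 CPM (2.67-fold higher [2.57 to 2.78]) and JUND at 272, 303, 666 and 475 CPM (2.199-fold higher [2.12 to 2.28]), both AP-1 subunits. FOSL1, another AP-1 subunit, was lower, at 18.4, 19.9, 6.61 and 10.7 CPM (3.01-fold lower [2.41 to 3.81]). Genes of ERK pathway feedback included 5 lower of 13 and 0 higher (median -0.48), with SPRY4, an inhibitor of receptor signalling, at 21.01, 17.2, 7.25 and 7.87 CPM (2.36-fold lower [1.89 to 2.98]).

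Interferon response genes included 7 higher and 1 lower of 29 (median 0.33), against 11.5% and 8.35% over all genes. STAT2, which carries the interferon signal to the nucleus, stood at 56.1 CPM in sh-Bcl2 against 164 in sh-c-Myc (2.93-fold higher [2.71 to 3.17]), with 70.7 in shControl and 126 in the double knockdown, and IFIT2, an antiviral effector, at 8.45, 6.21, 19.7 and 14.8 CPM (3.16-fold higher [2.51 to 4.04], 10.3% of its exonic length shared). STAT2 and IFIT2 were lowest in sh-Bcl2 and highest in sh-c-Myc. The lower gene was USP18, a negative regulator of interferon signalling, at 10.2, 9.84, 3.66 and 5.12 CPM (2.68-fold lower [1.97 to 3.72]).

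Some differences came from the sh-Bcl2 side. HMOX1, the haem-degrading enzyme, stood at 26.6 CPM in sh-Bcl2 against 6.99 in sh-c-Myc (3.796-fold lower [3.08 to 4.75]), with 11.1 in shControl and 4.61 in the double knockdown. TRAC, the constant region of the T cell receptor alpha chain, stood at 5.39, 18.6, 5.003 and 4.99 CPM (3.69-fold lower [2.88 to 4.83]), and the glutamate transporter gene SLC1A3 at 2.56, 8.19, 2.37 and 4.09 CPM (3.42-fold lower [2.37 to 5.13]). TRAC and SLC1A3 were highest in sh-Bcl2, with shControl and sh-c-Myc close together. On the low side, PLD2, a phospholipase D, stood at 11, 5.29, 20.7 and 14.6 CPM (3.902-fold higher [3.06 to 5.07]), and FADS2, a fatty acid desaturase, at 128, 82.7, 187 and 112 CPM (2.26-fold higher [2.12 to 2.42]). Both were below shControl in sh-Bcl2 and above it in sh-c-Myc. The next counts cover compared genes at 10 CPM or more in the higher of sh-Bcl2 and sh-c-Myc, without XIST, Y-linked genes and genes on unplaced sequences. Of these genes, 455 had sh-c-Myc above and sh-Bcl2 below shControl with both intervals clear of a ratio of 1, and 873 had the reverse. Of both kinds together, 134 were called higher and 250 lower, and the rest did not reach the call. The intervals hold counting error only, so small shifts pass at high counts. The number of genes eligible for these counts is not given here, so they cannot be read as shares. The interleukin-7 receptor gene IL7R was of the reverse kind, at 49.5, 71.9, 22.8 and 31.1 CPM (3.15-fold lower [2.798 to 3.57]).

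The BCL-2 family and the cell death machinery, the setting in which BCL2 works, showed few other differences. Over all genes 11.5% were called higher and 8.35% lower. Of 5 measured anti-apoptotic members only BCL2 was called. MCL1 stood at 356 CPM in sh-Bcl2 against 374 in sh-c-Myc, with 357 in shControl and 463 in the double knockdown, the highest library. BCL2L1 stood at 11.6, 8.46, 10.1 and 9.53 CPM (43.0% of its exonic length shared with another gene) and BCL2A1 at 1.77, 4.89, 5.9 and 5.95 CPM. Of 10 pro-apoptotic members 2 were lower and 0 higher (median 0.06). PMAIP1, the gene of NOXA, stood at 60.3, 44.9, 20.97 and 27.8 CPM (2.14-fold lower [1.87 to 2.45]). The effectors BAX (89.2, 61.04, 58.4 and 46.95 CPM) and BAK1 (51.5, 34.8, 38.6 and 36.3 CPM) were lower than shControl in all 3 other libraries and differed little between sh-c-Myc and sh-Bcl2. BCL2L11, the gene of BIM, stood at 46.9, 53.9, 59.6 and 68.1 CPM (10.9% shared). Among 18 caspase and apoptosome genes 2 were higher and 1 lower (median 0.05): CFLAR, which restrains caspase-8 (74.8, 89.2, 207 and 144 CPM, 2.32-fold higher [2.17 to 2.47], 12.03% of its exonic length shared), CASP9 (8.73, 7.33, 16.03 and 11.1 CPM, 2.18-fold higher [1.74 to 2.76]) and BIRC5, the survivin gene (104, 90.2, 35.5 and 56.9 CPM, 2.54-fold lower [2.299 to 2.81]).

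Stress programmes also lay near the background. Of 19 regulators of the integrated stress response, 1 was called higher and 0 lower (median -0.02, or 0.14 with total counts). ATF4, its main transcription factor, stood at 319 CPM in sh-Bcl2 against 314 in sh-c-Myc, with 581 in shControl and 250.1 in the double knockdown. Its log2 ratio was -0.02 [-0.08 to 0.03], so the single knockdowns had close levels and both lay below shControl. The called gene was CHAC1, a glutathione-degrading target of ATF4, at 14.3, 6.74, 15.1 and 1.98 CPM (2.23-fold higher [1.77 to 2.85]), and it was lowest in the double knockdown. DDIT3, a transcription factor of the same response, stood at 7.24, 2.91, 5.77 and 4.93 CPM, with 39.6% of its exonic length shared with another gene. Of 24 p53 targets 1 was higher and 3 were lower (median -0.08, or 0.09 with total counts). The higher one was TP53INP1 at 9.37, 6.54, 27.5 and 22.3 CPM (4.19-fold higher [3.37 to 5.29]). Its relative TP53INP2, which acts in autophagy, led the higher genes at 10 CPM or more by conservative fold. It stood at 10.4 CPM in sh-Bcl2 against 86.1 in sh-c-Myc (8.28-fold higher [7.03 to 9.85]), with 19.2 in shControl and 38.3 in the double knockdown. TFEB, the regulator of lysosome and autophagy genes, stood at 42.02, 31.5, 28.4 and 26.9 CPM and was not called.

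Genes outside protein coding tilted to sh-c-Myc. Antisense and lincRNA genes included 362 of 1095 higher (33.1%) and 56 lower (5.11%), against 951 (8.4%) and 996 (8.8%) of 11315 protein-coding genes. Antisense, lincRNA and sense intronic genes together took 0.600% of counts in sh-Bcl2 against 0.998% in sh-c-Myc, with 0.566% in shControl and 0.741% in the double knockdown. Genes with at least 1 count numbered 19823 in sh-Bcl2 and 21426 in sh-c-Myc. No source used here gives the strand setting of the counting, so reads of an antisense gene and of its partner cannot be told apart. Replication-dependent histone genes, whose mRNAs mostly lack a poly(A) tail, included 8 called higher and 0 lower of 10 measured (median 1.53), of which 4 met the filter through sh-c-Myc alone. The other 13 in the table were below 1 CPM in both libraries, and 5 of them had more counts in sh-c-Myc, 5 fewer and 3 the same number. The measured ones were low, the highest being HIST1H2BK at 3.83, 5.15, 15.7 and 9.72 CPM (3.04-fold higher [2.35 to 3.99]). GC content moved with the ratio: over 5 equal groups of genes that averaged at least 50 counts, ordered by GC content, the median ratio went from -0.17 at the lowest GC to 0.10 at the highest, and the share called higher from 3.46% to 11.7%. With a smooth trend on GC content and length removed, 1446 genes were higher and 1139 lower. The histone median was then 1.48, while the part of GC content in the noncoding difference was not tested.

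The remaining libraries show which side of each difference stood apart. Among the 1117 genes lower in sh-c-Myc, shControl lay nearer to sh-Bcl2 on the log scale in 1030 (92.2%) and nearer to sh-c-Myc in 87. Among the 1540 higher genes it lay nearer to sh-Bcl2 in 1264 (82.1%). With at least 50 counts on average, these shares were 97.1% of 909 lower and 90.7% of 708 higher genes. In most called genes sh-c-Myc was thus the library farther from shControl. The double knockdown lay between the single knockdowns in 1331 of the higher and 1025 of the lower genes, and with at least 50 counts in 650 of 708 and 871 of 909. Calling genes by a gap between the single knockdowns itself favours a place between them, and no share over uncalled genes was computed. The double knockdown was nearer to sh-c-Myc than to sh-Bcl2 in 60.4% of all higher and 63.1% of all lower genes. With at least 50 counts these shares were 68.8% and 64.7%. On a scale from 0 at sh-Bcl2 to 1 at sh-c-Myc, the median position of the double knockdown was 0.58 for all higher and 0.57 for all lower genes.

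The ratio of the double knockdown over shControl uses neither library of the direct contrast, apart from the shared scaling. It followed the direct ratio in order over 8 bins of 10828 genes. In the 78 genes more than 4-fold lower in sh-c-Myc the median log2 ratio of the double knockdown over shControl was -1.32, and 5.13% of these genes were above 0. In the 831 genes 2-fold to 4-fold lower it was -0.74, and 3.01% were above 0. In the 87 genes more than 4-fold higher it was 1.32, and 95.4% were above 0. Across genes Pearson's r was 0.667 and Spearman's rho 0.645, given as a description, since genes are not independent replicates and each pair of libraries is 1 observation. EGR1 was among the exceptions, lower in sh-c-Myc and higher in the double knockdown than in shControl.

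**Figure D4:**
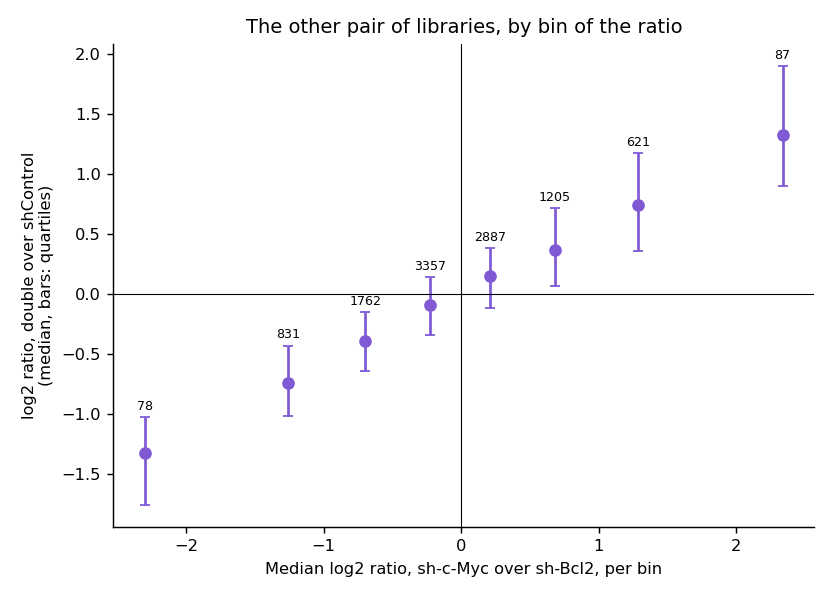
Median log2 ratio of the double knockdown over shControl (y axis, with quartiles as bars) against the median log2 ratio of sh-c-Myc over sh-Bcl2 (x axis) in 8 bins of genes that averaged at least 50 counts. Numbers give the genes per bin. The medians climb from -1.32 in the lowest bin to 1.32 in the highest.

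E-box letters were counted in the promoters, from 250 bases before to 50 after the RefSeq start, which matched 9425 of the 13376 genes. CACGTG, which reads the same on both strands, was present in 15.1% of promoters of genes called lower (122 of 809), 7.21% of those called higher (57 of 791) and 10.1% of those not called. Over all 27305 promoters of the table the share was 7.43%. Over 10 equal groups of matched genes with at least 50 counts on average, ordered by their ratio, it went from 15.9% in the lowest to 7.67% in the highest. CACGCG and CATGTG, which each differ from the E-box by a letter, were counted beside it on both strands. Whether MYC binds these near-matches was not measured, so they are not a neutral control. CACGCG showed the same direction, at 24.4% of lower, 12.9% of higher and 18.9% of uncalled genes, with 11.4% over all promoters. CATGTG stood at 8.90%, 8.22% and 6.52%, with 11.2% over all promoters. In each of 5 equal groups of protein-coding promoters ordered by GC content, CACGTG was more frequent in lower than in higher genes, the widest gap being 22.4% against 4.55% in the middle group and the narrowest 8.11% against 5.21% in the group of lowest GC. By list, ribosome biogenesis genes had CACGTG in 40.5% of promoters (17 of 42, UTP20 among them), and mitochondrial import genes in 25.9% (7 of 27). Lysosomal genes, which tended to be higher in sh-c-Myc, had it in 35.3% (6 of 17), and heat shock genes, which tended to be lower, in 0 of 24. A match gives letters only, and binding was not measured.

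**Figure D5:**
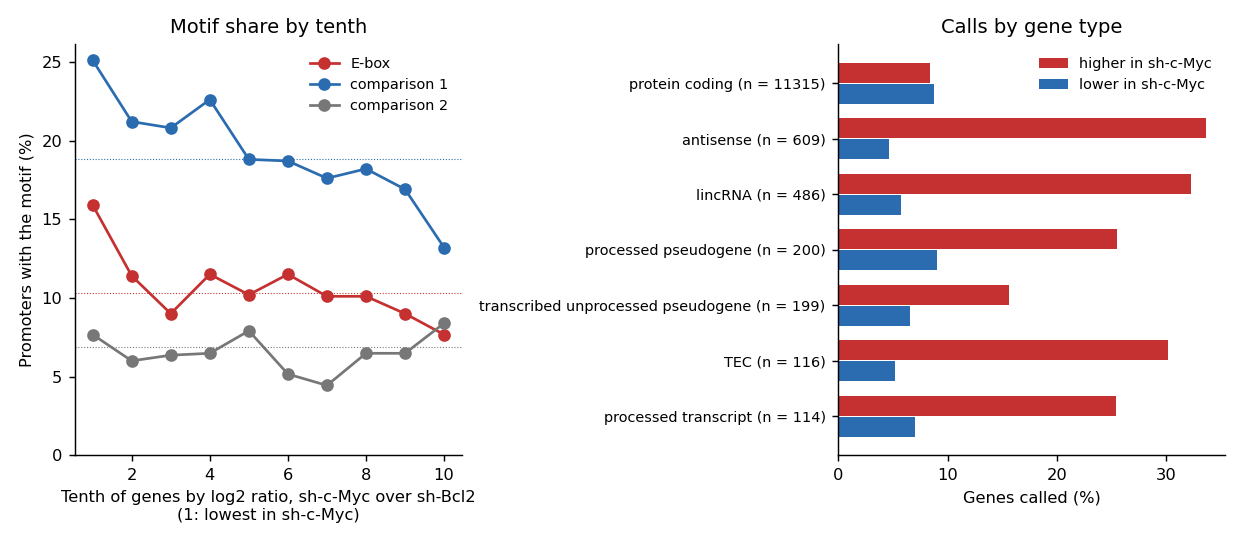
Left, the share of promoters (%) that hold the E-box CACGTG or its near-matches comparison 1 (CACGCG) and comparison 2 (CATGTG), in 10 equal groups of genes from the lowest to the highest ratio of sh-c-Myc over sh-Bcl2, with dotted lines at the share over all matched promoters. Right, the share of genes called higher and lower (%) by gene type; the E-box share goes from 15.9% to 7.67% over the groups, and antisense genes were called higher in 33.7%.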

How the data were processed

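The deposited table holds 4 libraries, 1 per group, with a read count and an FPKM for each gene. Per the submitters' processing notes, the authors used HISAT2 and HTSeq 0.13.5 with GRCh38, and no source used here gives the annotation release or the strand setting. sh-Bcl2 held 15691129 counts and sh-c-Myc 14421558, beside 14825763 in shControl and 15494138 in the double knockdown. The authors' deposited FPKM values were scaled by total counts, by a check on 9334 genes, and served as an alternative (pseudocount 1).

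Counts were scaled with TMM factors over the 4 libraries (edgeR 4.0.16, R 4.3.3). Log2 ratios used a prior count of 0.5, with exact conditional binomial (Clopper-Pearson) 95% intervals. Calls needed 2-fold, an interval excluding a ratio of 1, and 1 CPM in either library. Gene types, positions and exonic overlaps came from GENCODE 29, and promoters from RefSeq (GRCh38.p14). Alternatives were other scalings, filters and folds, removal of a spline trend (5 degrees of freedom) on GC content and length, and an additive fit of both hairpins over the 4 libraries by edgeR's quasi-likelihood test or DESeq2 1.42.0, with Benjamini-Hochberg adjustment and 1 residual degree of freedom. The calculations were tested on simulated data.

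The genes compared and the 61 lists were chosen with earlier results of these data known. The naming rule took both targeted genes, the 12 of each direction that led by conservative fold at 10 CPM or more, up to 5 called members of each list at 5 CPM or more with its most abundant member, the 5 per direction that moved furthest to opposite sides of shControl, and 12 fixed regulators and BCL-2 genes; not all of them are printed. PRC1, CD163, EPX, UTP20, CD14 and the monocyte and granule markers named as below 1 CPM lie outside that rule and were named after their values were seen.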

Additional observations from a re-analysis of the deposited data

How the results depend on the processing

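No paired analysis was possible because the groups hold 1 library each and share only 1 replicate number; leaving out any library would leave the additive fit no residual degree of freedom. Against 1540 genes higher and 1117 lower, 708 were higher with a mean of at least 50 counts, 951 among protein-coding genes only, 706 (325 lower) at 3-fold, 2537 (2498 lower) at 1.5-fold, and 662 (431 lower) with the deposited FPKM plus 1; these rules test fewer genes, or set another size. The additive fit of both hairpins called 2202 of 13376 genes (16.5%) at an adjusted p under 0.05 by edgeR's quasi-likelihood test, 984 of them higher, of which 670 were also called by the main rule, and 1218 lower, of which 825 were. With 2-fold added to that fit, 704 were higher and 740 lower, and DESeq2 gave 389 higher and 762 lower, so that lower calls outnumbered higher ones; the cause was not tested. Without the filter on low counts 2105 were higher and 1237 lower. The fit's single residual degree of freedom holds the departure from additivity and any spread between cultures together.

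The MYC ratio of -0.39 became -0.22 with total counts, -0.26 with upper quartile factors and -0.22 with FPKM plus 1, and the BCL2 ratio of 1.53 became 1.69 with total counts. Some called genes near 2-fold fell short of it. NPM1 and PMAIP1 did so with total counts (log2 ratios of -0.91 and -0.93) and with the trend removed (-0.87 and -0.88). MKI67 did so with total counts (-0.87), and CEBPD, JUND and FADS2 with the trend removed (0.92, 0.92 and 0.95). Of the 61 lists, those of ribosome biogenesis, DNA replication, mitosis, nucleotide synthesis, import, granule and monocyte genes kept their direction under every alternative run. Lists that changed sign had medians between -0.46 and 0.22, among them p53 targets (0.09 with total counts), the MYC network (0.17, or -0.09 with the trend removed) and immediate early genes (0.07 with at least 50 counts). At this depth a gene with 3 counts has 0.198 CPM in sh-Bcl2 and 0.192 in sh-c-Myc, so differences between lower levels were not detectable.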

Other observations

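Gene groups outside the main programmes varied in their calls, against 11.5% higher and 8.35% lower over all genes. Of 14 enzymes of asparagine, proline and transsulphuration metabolism 6 were lower in sh-c-Myc and 0 higher (median -0.81). Among 17 amino acid transporters 3 were lower (median -0.17), with SLC38A5, a glutamine and serine transporter, at 79.3 CPM in sh-Bcl2 against 12.8 in sh-c-Myc (6.198-fold lower [5.34 to 7.25]), with 79.6 in shControl and 18.5 in the double knockdown, and SLC38A1, a glutamine transporter, at 177, 129, 59.0 and 31.99 CPM (2.19-fold lower [2.03 to 2.38]). In both, sh-c-Myc and the double knockdown were low, and for SLC38A1 the double knockdown was the lowest library. The list of 28 cholesterol and fatty acid synthesis genes held 3 higher and 0 lower (median 0.28), a share near the 11.5% called higher over all genes. The metallothionein gene MT2A, which binds zinc, stood at 15.1, 6.41, 0.7696 and 4.16 CPM (8.03-fold lower [4.55 to 16.7]).

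Large differences were also seen in single genes. CDC42EP1, an effector of the GTPase CDC42, stood at 51.8 CPM in sh-Bcl2 against 7.18 in sh-c-Myc (7.18-fold lower [5.91 to 8.87]), with 92.9 in shControl and 5.44 in the double knockdown, low in both libraries with the c-Myc hairpin and lower in sh-Bcl2 than in shControl. HPDL, a mitochondrial dioxygenase-like protein gene, stood at 18.4, 18.1, 1.73 and 4.09 CPM (10.3-fold lower [7.03 to 16.1]). GPA33, an immunoglobulin-family surface protein gene, stood at 2.56, 2.91, 20.6 and 16.9 CPM (7.01-fold higher [5.16 to 9.94]). The noncoding gene LINC00926 stood at 8.38, 7.597, 50.4 and 17.7 CPM (6.603-fold higher [5.44 to 8.13]). KIT, the stem cell factor receptor gene of progenitors and mast cells, stood at 1.77, 2.11, 9.49 and 6.46 CPM (4.44-fold higher [3.05 to 6.803]), higher in both libraries with the c-Myc hairpin. The 5 measured stem and progenitor markers, KIT among them, had a median of 0.53, with 4 above 0 and 1 called higher.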
